A study of Mus musculus with 4 samples.

Results

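Endothelial cells form the inner lining of blood and lymph vessels, and 89 of them were found among 19046 testis cells of mice at postnatal day 8. The RNA of each cell had been counted on a droplet platform that gives every captured molecule 1 unique molecular identifier (UMI). A barcode was taken as a cell when it held at least 3000 UMIs with at most 20% from mitochondrial genes. It was selected as endothelial when *Cdh5*, *Egfl7*, *Cldn5*, *Esam* and *Pecam1* together had at least 8 UMIs. Barcodes were left out when 4 collagen and stroma genes or 5 Sertoli cell genes reached 0.5% of their UMIs, when the germ cell genes *Ddx4* and *Dazl* reached 10 UMIs, or when the 3 C1q genes of macrophages reached 5. The rule kept 35 control cells, 0.393% of 8915 (exact 95% interval 0.274% to 0.546%), and 54 Cnot3-cKO cells, 0.533% of 10131 (0.401% to 0.695%).

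Both genotypes carried target sites for Cre recombinase in both copies of *Cnot3*, a subunit of the CCR4-NOT deadenylase, and both received 4-hydroxytamoxifen. The controls were Cnot3 flox/flox mice without Cre, which the sample labels call wild-type. The Cnot3-cKO mice were Cnot3 flox/flox; Ddx4-creER, in which a tamoxifen-dependent Cre is made from the germ cell gene *Ddx4*. The labels give injections that began on day 1 and ended on day 1 or 2 in the control samples and on day 3 or 4 in the Cnot3-cKO samples, while the study's methods describe 1 schedule for both genotypes. Whether the length of treatment differed between the genotypes is thus not known. Dissociated tubule cells had been sorted as positive for CD9 and THY1, a gate meant for spermatogonia, and the number of endothelial cells is therefore a number of cells that passed that sort.

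Each genotype has 1 matrix that holds both of its samples, and barcodes could not be assigned to them. The comparison is between 1 control library of 181550221 UMIs and 1 Cnot3-cKO library of 168770743 UMIs, with no replicates, and no test between genotypes was possible. Intervals cover counting error only, and cells of 1 library are not replicates. Of the 6 markers of the series for this cell type, *Cdh5*, *Egfl7*, *Cldn5*, *Esam*, *Ctla2a* and *Ramp2*, the first 4 were used by the rule, and all 6 had UMIs in at least 33 control and 47 Cnot3-cKO cells.

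Testis arteries, capillaries, veins and lymphatic vessels run between the seminiferous tubules, outside the wall that encloses the germ cells. Their endothelium is joined by adherens and tight junctions and is kept by signals through vascular endothelial growth factor (VEGF), angiopoietin, Notch and bone morphogenetic protein (BMP) receptors. Arterial endothelium is known for gap junction proteins and Notch signalling, capillary endothelium for lipid and peptide receptors, and lymphatic endothelium for the regulator *Prox1*. Testis endothelium is also known as a source of factors for spermatogonia.

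Promoters are shown for genes that lead the description of these cells, because the ETS family of transcription factors is known for its place in endothelial genes. Windows of 250 bases before to 50 bases after a transcription start were taken from RefSeq on GRCm38.p6, and 10 of 21 genes looked for had at least 1, giving 14 windows. Each window was searched on both strands for an ETS core, spelled AGGAAG. The other motif searched on both strands was the core that is bound by zinc finger factors known from blood and vessels, spelled AGATAA. Matches are in capitals, and a match on the other strand reads as the reverse complement. The first window, at 1 start of *Egfl7*, is chr2:26583615-26583914 on the plus strand and holds AGGAAG in 2 places. The second, at *Ctla2a*, is chr13:60936576-60936875 on the minus strand, with both motifs. The third, at *Flt1*, is chr5:147725962-147726261 on the minus strand, with AGGAAG in 2 places. The fourth, at *Cldn5*, is chr16:18776597-18776896 on the plus strand and has no match to either motif.
Egfl7: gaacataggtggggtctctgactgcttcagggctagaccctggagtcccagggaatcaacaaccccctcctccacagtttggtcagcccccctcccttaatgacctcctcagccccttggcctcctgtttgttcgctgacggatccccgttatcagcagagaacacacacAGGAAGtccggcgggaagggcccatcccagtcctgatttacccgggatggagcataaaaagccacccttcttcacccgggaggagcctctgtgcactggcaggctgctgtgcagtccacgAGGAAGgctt
Ctla2a: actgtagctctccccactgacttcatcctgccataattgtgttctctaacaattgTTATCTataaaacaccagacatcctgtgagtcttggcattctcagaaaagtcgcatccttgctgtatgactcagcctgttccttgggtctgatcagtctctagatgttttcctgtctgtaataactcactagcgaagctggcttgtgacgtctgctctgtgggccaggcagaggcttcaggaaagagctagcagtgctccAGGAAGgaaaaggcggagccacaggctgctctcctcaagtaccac
Flt1: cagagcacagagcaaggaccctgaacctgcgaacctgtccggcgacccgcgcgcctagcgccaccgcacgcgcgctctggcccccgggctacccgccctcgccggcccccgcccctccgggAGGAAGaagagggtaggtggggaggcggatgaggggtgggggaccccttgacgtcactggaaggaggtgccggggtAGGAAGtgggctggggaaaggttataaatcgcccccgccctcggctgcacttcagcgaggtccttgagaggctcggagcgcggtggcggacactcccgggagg
Cldn5: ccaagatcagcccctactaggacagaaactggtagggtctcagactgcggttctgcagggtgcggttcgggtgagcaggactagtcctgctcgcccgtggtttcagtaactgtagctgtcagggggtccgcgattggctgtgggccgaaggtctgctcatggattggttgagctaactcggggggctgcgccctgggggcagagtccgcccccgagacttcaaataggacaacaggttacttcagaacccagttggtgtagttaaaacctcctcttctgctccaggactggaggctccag
AGGAAG was found in 8 of the 14 windows, which belong to 6 of the 10 genes, against 35.4% of 32851 RefSeq promoter windows of the same length. AGATAA was found in 1 of the 14, that of *Ctla2a*, against 11.2% of all windows. The windows of *Ctla2a* overlap and hold the same AGGAAG, which is thus counted more than once, and *Egfl7* and *Ly6c1* also have more than 1 window. These are matches of letters in short windows, and the genes had been chosen by their level in these cells.

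The 5 genes of the rule divided the barcodes into separate ranges. Their summed UMIs per cell ran from 23 to 191 in control (median 59) and from 11 to 314 in Cnot3-cKO (median 49.5). Just outside the threshold, the highest sum among barcodes that met every other limit was 5 in control and 4 in Cnot3-cKO. A sum of 0 was found in 191 and 203 such barcodes and a sum of 1 to 7 in 62 and 66. The 2 members nearest the threshold were both Cnot3-cKO cells, with sums of 11 and 12. These values chose the cells and are a description.

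**Figure D1:**
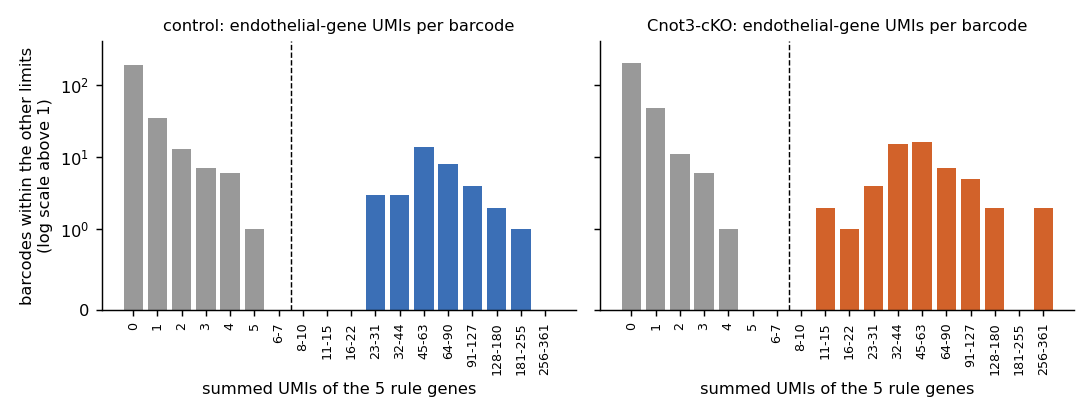
Barcodes that met every other limit, by the summed UMIs of *Cdh5*, *Egfl7*, *Cldn5*, *Esam* and *Pecam1* (horizontal axis), with the number of barcodes on the vertical axis, for the control and the Cnot3-cKO library. No barcode lies between 6 and 10 UMIs in either library, and the control cells begin at 23.

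A further 30 control and 33 Cnot3-cKO barcodes reached 8 UMIs of these genes and failed a purity limit. The collagen limit removed 19 and 23 of them, the germ cell limit 10 and 8, the Sertoli limit 3 and 1 and the C1q limit 0 and 1. Their median depth was 28868 and 24691 UMIs, above the 11277 and 9025 UMIs of the endothelial cells, and 23 and 24 of them had only 8 to 12 UMIs of the 5 genes. Scrublet called 2 control and 3 Cnot3-cKO members doublets, against 6.13% and 4.40% of all cells. No member barcode was shared between the libraries, and 2 Cnot3-cKO members had at least 3000 UMIs under the same barcode in control.

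For comparison, cells of 4 other kinds were picked by count rules from the same libraries: 1195 and 1932 Sertoli cells (control and Cnot3-cKO), 3184 and 3420 interstitial cells, 928 and 343 germ cells and 27 and 43 macrophages. Counts were summed over the cells of a kind and given per 1000000 UMIs (CPM). Of 6528 genes with at least 20 UMIs in endothelial cells, 230 (3.52%) were at least 4-fold above every other kind in both libraries. Since the cells were chosen by expression, this is a description. Folds are over the highest other kind, each kind read as at no less than 3 counts. Macrophages had the fewest UMIs, 460956 and 694009, so their 3 counts set a floor that differs between the libraries. A fold at this floor is a lower limit, and its size follows the depth of the macrophages.

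The rule genes differed in how far they stood above the other kinds. *Cldn5*, the tight junction protein claudin of endothelium, stood at 2152 CPM in control (95% interval 2017 to 2295) and 2595 CPM in Cnot3-cKO (2461 to 2734), 331-fold and 600-fold above the other kinds. *Egfl7*, a secreted protein of vessel walls, was at 1368 and 1451 CPM, 63.1-fold and 62.9-fold above. *Cdh5*, the cadherin of endothelial adherens junctions, was the least separated of the 5 at 21.1-fold and 24.2-fold, since interstitial cells held 37.8 and 37.7 CPM of it.

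Outside the rule, *Tm4sf1*, *Ctla2a* and *Gpihbp1* had the highest folds. *Tm4sf1*, a membrane protein of the tetraspanin superfamily, was at 1112 and 1163 CPM, 171-fold and 164-fold above the other kinds. *Ctla2a*, of a family of cathepsin inhibitors, was at 2235 and 1087 CPM (343-fold and 126-fold). *Gpihbp1*, which holds lipoprotein lipase on the capillary surface, was at 665 and 347 CPM (102-fold and 80.3-fold). The other 12 of the 15 leading genes were *Kdr*, *Clec14a*, *Cd93*, *Ptprb*, *Ly6c1*, *Emcn*, *Flt1*, *Aplnr*, *Icam2*, *AC131992.1*, *Sox17* and *Gja4*. *Ly6c1* lies in a family of close copies, and its counts are uncertain to that degree. Among 16 further endothelial markers, 13 were at least 4-fold above every other kind in both libraries.

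**Figure D2:**
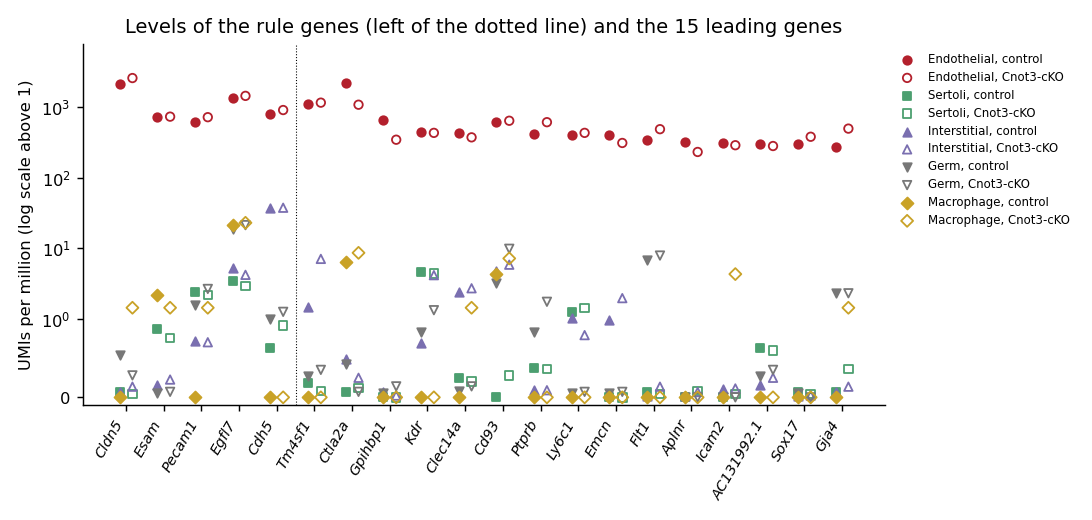
Level of each rule gene and of the 15 leading genes (horizontal axis) in CPM (vertical axis, log scale above 1), for endothelial cells and the 4 other kinds in control (filled) and Cnot3-cKO (open). The endothelial points lie above those of every other kind for each gene, with *Cdh5* in interstitial cells the nearest among the rule genes.

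Markers of blood cells and Leydig cells had few UMIs. The 3 C1q genes and the germ cell genes *Ddx4* and *Dazl* were limited by the rule. Of the 7 other macrophage markers, 6 had 0 UMIs in all 89 cells, and the 7 summed to 2 and 7 UMIs. Of 8 T cell markers 7 were at 0, and the list had 1 UMI in each library. The 5 platelet markers had 3 and 2 UMIs, the 6 erythroid markers 1 and 3, and the 7 Leydig markers 13 and 7. The 8 germ cell markers outside the rule summed to 45 and 56 UMIs, 103 CPM in each library, against 2343 and 2193 CPM in germ cells. *Uchl1* held most of them, at 94.0 and 94.1 CPM, against 1172 and 923 CPM in germ cells, and 3 of the 8 had 0 UMIs in both libraries.

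Sertoli markers were present in the endothelial cells. The rule held 5 of the 11 Sertoli markers down, so their levels follow from the choice of cells. The 6 others summed to 527 CPM in control and 395 CPM in Cnot3-cKO endothelial cells, against 6253 and 6300 CPM in Sertoli cells, and the 3 cells with most of them held 55.2% and 43.5% of those UMIs. Of the 6, all but *Wt1* stood at 1.95% to 7.24% of their Sertoli level. *Wt1*, a zinc finger regulator of gonad and kidney, was at 211 and 186 CPM, 49.97% and 51.8% of its Sertoli level, with UMIs in 27 of 35 and 34 of 54 endothelial cells. *Wt1* was at 2.17 CPM in control macrophages and 23.1 CPM in Cnot3-cKO macrophages. Leaving out the Sertoli-rich cells was tried only through a stricter limit, and the part of free RNA in these values was not tested beyond that.

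Pericyte and myoid genes were nearly absent. *Rgs5*, a pericyte gene, had no control UMI and 23 in Cnot3-cKO, all 23 in 1 cell of 3162 UMIs in which *Cdh5* had 3 UMIs and *Cldn5* had 0. That cell is the member with a rule sum of 11. Of the other pericyte and myoid markers, *Notch3*, *Cspg4*, *Myh11* and *Cnn1* had 0 UMIs in both libraries. *Mcam*, which endothelium also makes, was the only one above 20 UMIs in both, at 68 and 111.

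The cells were not all of 1 kind. A set rich in the gap junction genes *Gja4* and *Gja5* stood apart, as did 4 cells rich in lymphatic genes. The limits that define these sets were chosen after the values were seen, so the values of the defining genes are descriptions.

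Lymphatic-like cells numbered 1 of 35 in control and 3 of 54 in Cnot3-cKO. They were found by a limit of 20 UMIs over 6 genes: *Prox1*, the lymphatic master regulator, *Lyve1*, a hyaluronan receptor, *Pdpn*, *Mmrn1*, the chemokine *Ccl21a* and *Reln*. The control cell had 186 UMIs of the 6 and the Cnot3-cKO cells had 288, 287 and 67, while the highest count in any other member was 2. *Ccl21a* had 110 UMIs in the control cell and 251, 153 and 32 in the Cnot3-cKO cells, and *Prox1* had 7 against 4, 12 and 1. Both had 0 UMIs in every other endothelial cell. *Ccl21a* has near-identical copies in the genome, and its counts may be shared with them.

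Genes that had not defined these 4 cells were also found in them. *Flt4*, the receptor for VEGF-C, had 17 of its 35 UMIs there in control and 31 of 44 in Cnot3-cKO. *Fgl2*, a secreted fibrinogen-like protein, had all of its 5 and 60 UMIs there. *Thy1*, one of the 2 proteins of the sort, had 6 and 21 UMIs, all of them in these 4 cells. *Cd9*, the other, was at 500 and 517 CPM across the endothelial cells, against 53.7 to 157 CPM in the other kinds. *Esam*, a rule gene, had 0 UMIs in the lymphatic-like cells. Scrublet called 3 of the 4 cells doublets, and 2 Cnot3-cKO lymphatic-like cells had 12.9% and 17.9% mitochondrial UMIs, the second the highest of any member. With 1 cell against 3, the median log2 ratio of 1.23 for the lymphatic list (4 of 7 genes at least 2-fold higher in Cnot3-cKO) rests on those cells.

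*Gja4* and *Gja5* build the gap junctions of arterial endothelium. Cells with at least 5 UMIs of the pair, lymphatic-like cells aside, were 9 of 35 in control (25.7%, exact interval 12.5% to 43.3%) and 10 of 54 in Cnot3-cKO (18.5%, 9.25% to 31.4%). The intervals overlap. Per cell, the pair had 7, 7, 8, 10, 11, 11, 12, 20 and 44 UMIs in the control cells and 13, 15, 17, 21, 22, 24, 27, 27, 60 and 65 in the Cnot3-cKO cells. A sum of 2 to 4 UMIs was seen in 0 control and 5 Cnot3-cKO cells of 3748 to 7172 UMIs, and 4 of these 5 had 0 UMIs of the receptor gene *Aplnr*. With the limit at 2 UMIs, an alternative added after the values were seen, the set was 9 of 35 control cells (25.7%) and 15 of 54 Cnot3-cKO cells (27.8%, 16.5% to 41.6%), so the order of the shares turned.

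Of 3186 genes, 34 were at least 4-fold higher in the *Gja4* and *Gja5*-rich cells than in the remaining endothelial cells in both libraries, and 21 were at least 4-fold lower. *Mgp*, an inhibitor of calcification and of BMPs in the arterial wall, was at 2373 CPM against 92.1 CPM in control and at 5323 against 140 CPM in Cnot3-cKO. The cell cycle inhibitor *Cdkn1c* was at 391 against 19.0 CPM and at 544 against 40.3 CPM. The noncoding RNA *H19* was at 635 against 25.4 CPM in control, and in Cnot3-cKO it had 77 UMIs in the rich cells and 0 in the remaining cells. *Tmem100*, *Gadd45g*, *Npr3*, *Serpinf1*, *Enpp6*, *Gpm6b*, *Vegfc*, *Egfl8*, *Fn1* and *Fbn1* were among the others that were higher.

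Receptors of capillary and venous endothelium showed the opposite pattern. *Aplnr*, the apelin receptor, was at 444 CPM in the remaining control cells and 339 CPM in the remaining Cnot3-cKO cells, and had 1 and 0 UMIs in the gap junction-rich cells. It had UMIs in 24 of 25 and 31 of 41 remaining cells, against 1 of 9 and 0 of 10. Median depth was 11851 UMIs in the remaining control cells and 10536 in the rich ones, and 8632 and 10461 in Cnot3-cKO. The remaining Cnot3-cKO cells began at 3065 UMIs and the rich ones at 7719. Sertoli cells had 0 and 0.0798 CPM of *Aplnr*. The part of depth or free RNA in this contrast was not tested. *Gpihbp1* was at 873 against 137 CPM in control and at 494 against 15.1 CPM in Cnot3-cKO. *Apln*, the ligand of *Aplnr* and a gene of sprouting cells, had 54 and 73 UMIs in the remaining cells and 0 and 1 in the rich cells. *Ccnd1*, *Meox1*, *Slco2a1*, *Dock4* and *Col15a1* were also on this side.

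**Figure D3:**
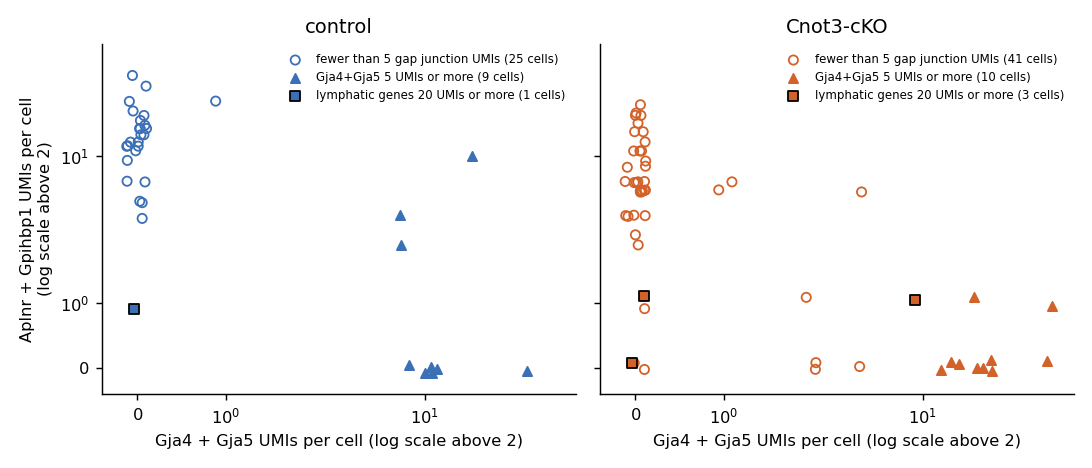
Each endothelial cell by its UMIs of *Gja4* plus *Gja5* (horizontal axis) and of *Aplnr* plus *Gpihbp1* (vertical axis), both on a log scale above 2 with small random shifts, for control and Cnot3-cKO. The gap junction-rich cells (9 and 10, triangles) lie along the bottom right, and the remaining cells (25 and 41, circles) along the left.

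Some cells carried transcripts of the cell cycle. With each cell reduced to 3000 UMIs, as the expected value over all draws, 13.7% of control cells (4.8 of 35, exact interval at 5 cells 4.81% to 30.3%) and 26.6% of Cnot3-cKO cells (14.3 of 54, interval at 14 cells 14.96% to 39.7%) had at least 3 UMIs of 12 cell cycle genes. The intervals overlap. At full depth the shares were 51.4% and 55.6%. Cells with at least 10 UMIs of the list without *Hmgb2*, a limit set after the values were seen, were 3 in control and 8 in Cnot3-cKO. The next cell below this limit had 9 UMIs in each library. Of the 11 cells, 10 were among the 25 and 41 remaining cells (3 and 7), 1, in Cnot3-cKO, was lymphatic-like, and 0 were among the 9 and 10 gap junction-rich cells, which are too few for a comparison. Scrublet called 2 of the 8 Cnot3-cKO cells doublets. *Mki67*, a proliferation marker, had UMIs of 0, 3 and 7 in the 3 control cells and from 1 to 15 in the 8 Cnot3-cKO cells.

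The comparison between genotypes addresses whether cells outside the germ line differ when *Cnot3* is deleted by a germ cell Cre. *Cnot3* itself was counted 21 times in control and 25 times in Cnot3-cKO endothelial cells, 48.1 CPM (29.8 to 73.6) and 46.1 CPM (29.9 to 68.1). On the log2 scale the ratio of Cnot3-cKO to control was -0.06 (-0.96 to 0.85), an interval that allows near 2-fold either way. In germ cells, the cells in which Cre is made, *Cnot3* stood at 71.5 and 39.8 CPM. A 3′ count does not show whether a transcript lacks the deleted part. Of 11 CCR4-NOT subunits, 9 had at least 20 UMIs, with a median log2 ratio of -0.06. Of these 9, 0 were 2-fold apart, near the shares of all genes (5.3% higher and 1.95% lower).

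Of the 6528 genes, 346 (5.3%) were at least 2-fold higher in Cnot3-cKO and 127 (1.95%) at least 2-fold lower. The median log2 ratio was 0.05, with 90% of genes from -0.73 to 1.01, and 54.6% of genes had a ratio above 0. These shares are the background for the counts within gene lists. In a short list, few or no genes 2-fold apart is near them. In 401 genes the interval lay above 0 and in 294 below it. A gene of 20 UMIs can reach 2-fold by counting error, and 9 of the higher genes had over 50% of their Cnot3-cKO UMIs in 1 cell.

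The genes with the highest lower limits were 4 of replication and division, *Hist1h2ap*, *Hist1h1b*, *Hist1h2ae* and *Top2a*, with *Gkn3* and *Itga9*. *Top2a*, the topoisomerase that untangles chromosomes, had 7 control and 105 Cnot3-cKO UMIs, a log2 ratio of 3.59 (2.501 to 4.94), of which 6 and 103 came from the 3 and 8 cycling cells. *Hist1h1b*, a linker histone, had 5 and 104 UMIs (4.07, 2.80 to 5.72), 2 and 101 in the cycling cells, 1 cell held 49.0% of the Cnot3-cKO UMIs, and the ratio was 2.18 without the called doublets. *Hist1h2ap* had 1 and 135 UMIs (6.76, 4.26 to 12.08). Histone genes have near-identical copies, so their single values are uncertain. Of the 12 cell cycle genes 6 were at least 2-fold higher (5.3% of all genes) and 0 lower (1.95%), with a median log2 ratio of 0.85. Without the cycling, lymphatic-like and gap junction-rich cells, an alternative added after the values were seen, the 346 higher genes became 176 and the 127 lower genes 173, and the ratios of *Hist1h1b* and *Hist1h2ae* turned negative.

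Transcripts of MHC class I, which presents peptides to T cells, were lower in Cnot3-cKO. *H2-K1*, a heavy chain (chr17:33996017-34000347, minus strand, GRCm38), had 488 control and 214 Cnot3-cKO UMIs, 1119 CPM (1022 to 1222) against 395 CPM (344 to 452), a log2 ratio of -1.50 (-1.74 to -1.27). The second heavy chain, *H2-D1*, was at 1440 and 628 CPM (-1.20, -1.39 to -1.01). *B2m*, the light chain encoded on chromosome 2, was at 960.5 and 408 CPM (-1.24, -1.48 to -0.997).

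Within single control cells the 3 transcripts summed to between 1081 and 8143 CPM, with a median of 3606. In Cnot3-cKO cells the sum ran from 220 to 6303 with a median of 892. All 35 control cells lay above the Cnot3-cKO median, and 51 of 54 Cnot3-cKO cells lay below the control median. The lowest control cell lay above 32 of the Cnot3-cKO cells, and the ranges overlapped for the others.

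**Figure D4:**
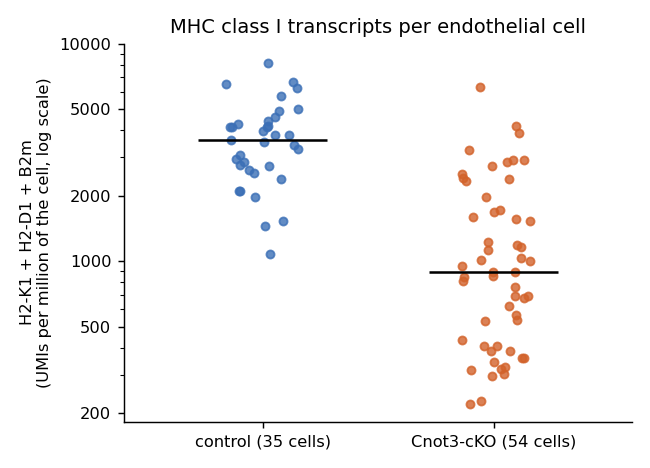
Summed *H2-K1*, *H2-D1* and *B2m* in each endothelial cell, in CPM of the cell (vertical axis, log scale), for 35 control and 54 Cnot3-cKO cells. Points are cells with small random sideways shifts and black bars are medians, 3606 in control and 892 in Cnot3-cKO.

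The same direction held within sets of cells. *H2-K1* had a log2 ratio of -1.11 (-1.52 to -0.71) in the gap junction-rich cells and -1.61 (-1.91 to -1.31) in the remaining cells. *H2-Q7* and *H2-Q6*, class I genes of the Q region with near-identical neighbours, had 98 against 25 UMIs (-2.28) and 41 against 10 UMIs (-2.35), and their counts may be shared with other copies. Of 9 genes in a class I list chosen after the values were seen, 5 were at least 2-fold lower and 0 higher, with a median log2 ratio of -1.20. Since the list was chosen with the values known, its count is a description and adds nothing to the single genes. *Psmb8*, a subunit of the immunoproteasome that cuts peptides for class I, was at 206 and 103 CPM (-0.997), just short of 2-fold, and *Tap1* and *Tapbp*, which load the peptides, had ratios of -0.38 (-1.31 to 0.55) and -0.07 (-0.72 to 0.59).

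The lower class I level was also seen in other kinds of cells of the same 2 libraries. *H2-K1* was at 74.5 CPM in control and 31.5 CPM in Cnot3-cKO Sertoli cells, at 30.3 and 20.3 CPM in interstitial cells and at 2113 and 1317 CPM in macrophages. In germ cells it was higher, at 12.5 and 20.4 CPM. With 1 library per genotype, a difference between genotypes and one between libraries cannot be told apart. Genes known to respond to interferon, in a list also chosen after the values were seen, had a median log2 ratio of -0.18. Of its 6 measured members 0 were 2-fold apart, near the shares of all genes (5.3% higher and 1.95% lower). *Isg15*, in that list, had 37 and 23 UMIs (-0.998, -1.82 to -0.21), just short of 2-fold, and *Ifitm3* was at 933 and 864 CPM (-0.11).

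The other genes with the lowest upper limits had few UMIs. *Cd74*, the invariant chain of MHC class II, had 20 UMIs in 8 control cells, 65.0% of them in 1 cell, and 0 in Cnot3-cKO. With the 0 read as 3 counts, it was 8.28-fold lower. This fold leaves out the counting error of the 20 control UMIs. *Wfdc10* had 18 and 3 UMIs, with 66.7% of the control UMIs in 1 cell, and its ratio turned positive when Sertoli and collagen genes were held under 0.25%. The noncoding RNA *RP24-337D17.1* had 54 and 18 UMIs (-1.90, -2.75 to -1.11). Both are Sertoli genes by level here, at 1026 and 897 CPM for *Wfdc10* and 746 and 735 CPM for *RP24-337D17.1* in Sertoli cells.

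Arterial genes were higher in Cnot3-cKO. Of 13 genes of the arterial list with at least 20 UMIs, all 13 had a ratio above 0, 4 were at least 2-fold higher and 0 lower, and the median log2 ratio was 0.87. Among all genes measured, 54.6% had a ratio above 0 and 5.3% were at least 2-fold higher. *Gja4* was at 273 and 498 CPM (0.87, 0.55 to 1.19) and *Gja5* had 12 and 46 UMIs (1.63, 0.69 to 2.68). *Sema3g*, a secreted guidance factor, had 21 and 78 UMIs (1.58, 0.87 to 2.35), *Bmx*, a kinase of arterial endothelium, 10 and 31 (1.32, 0.25 to 2.51), and *Mgp* 272 and 757 (1.16, 0.96 to 1.37). *Efnb2*, the ephrin that marks arteries from veins, had 46 and 111 (0.96, 0.45 to 1.49).

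These sums rest on few cells. The 3 cells with most UMIs held 51.5% of *Gja4*, 67.1% of *Eln* and 65.7% of *Mgp* in Cnot3-cKO, and 56.3%, 79.5% and 75.0% in control. When cells were weighted equally, the log2 ratio of *Gja4* was 0.34 and that of *Mgp* 0.67. Holding Sertoli and collagen genes under 0.25% left 32 control and 53 Cnot3-cKO cells, with ratios of 0.41 for *Gja4* and 0.62 for *Mgp*. The study's stated filters gave 0.58 and 0.88. Without each gene's highest cell in each library the ratios were larger, 1.02 and 1.602. Within the gap junction-rich cells, *Gja4* was at 1152 and 1857 CPM (0.69, 0.37 to 1.02), chosen in part by that gene.

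Matrix genes of the arterial wall were also higher. *Eln*, which encodes elastin, had 73 and 432 UMIs (2.25, 1.89 to 2.63). Within the gap junction-rich cells the *Eln* UMIs were 0, 0, 0, 1, 1, 1, 2, 9 and 32 per control cell and 0, 0, 6, 7, 15, 25, 28, 51, 110 and 129 per Cnot3-cKO cell. More than 5 UMIs were thus seen in 2 of 9 and 8 of 10 cells. *Gkn3*, a secreted protein known in arterial endothelium, had 3 UMIs in 1 control cell and 72 in 7 Cnot3-cKO cells (4.27, 2.67 to 6.58), and 71 of the 72 were in gap junction-rich cells. *Fbln5*, an elastic fibre protein, was at 218 and 366 CPM (0.75), and *Ltbp4*, which binds latent TGF-beta, at 186 and 353 CPM (0.93). In a list of 7 such genes chosen after the values were seen, 3 were at least 2-fold higher and 0 lower, which is a description only. Interstitial cells had 229 and 262 CPM of *Eln* and 1573 and 1679 CPM of *Mgp*. In the endothelial cells, the 6 interstitial markers that the rule did not limit, *Mgp* among them, summed to 644 and 1423 CPM. The 5 without *Mgp*, which are *Igf1*, *Lum*, *Pdgfra*, *Postn* and *Tcf21*, summed to 20.6 and 25.8 CPM there. In interstitial cells those 5 summed to 2093 and 2127 CPM. The part of stromal RNA in the *Eln* and *Mgp* values was not tested.

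*Itga9*, an integrin of lymphatic and other cells, had no control UMI and 24 in 14 Cnot3-cKO cells. With the control count read as 3, it was 6.44-fold higher. This fold leaves out the counting error of the 24 UMIs. The gap junction-rich cells held 12 of the 24 and the lymphatic-like cells 7.

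Of 18 barrier and transport genes measured, 8 had ratios above 0 and 10 below, with a median log2 ratio of -0.06. The 1 at least 2-fold higher was *Plvap*, the protein of fenestral diaphragms, and the 1 lower was *Mfsd2a*, a lipid carrier of the blood-brain barrier. *Mfsd2a* had 44 and 19 UMIs (-1.52, -2.38 to -0.72), of which 39 and 8 were in gap junction-rich cells. *Slc2a1*, the glucose carrier, was at 723 and 378 CPM in those cells (-0.94, -1.48 to -0.40), and at 76.2 and 118 CPM in the remaining cells (0.63, -0.12 to 1.42). *Plvap* had 10 and 25 UMIs (1.01, -0.10 to 2.23), of which 7 and 10 came from 1 cell of each library.

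Of 10 capillary genes measured, 3 had ratios above 0 and 7 below, 1 was at least 2-fold lower, 0 were higher, and the median log2 ratio was -0.16. Among all genes measured, 54.6% had a ratio above 0 and 1.95% were at least 2-fold lower. The 1 lower gene was *Ly6a*, a surface protein with close copies, with 51 and 31 UMIs (-1.03, -1.72 to -0.36). *Gpihbp1* had 290 and 188 UMIs (-0.94, -1.21 to -0.67), *Aplnr* 141 and 126 (-0.47, -0.83 to -0.12) and *Rgcc*, a cell cycle regulator of endothelium, 256 and 222 (-0.52, -0.78 to -0.25). The 3 above 0 were *Cd300lg*, with 17 and 33 UMIs (0.64, -0.24 to 1.58), *Sparcl1*, with 289 and 442 (0.30, 0.08 to 0.52), and *Ly6c1*, with 179 and 235 (0.08, -0.21 to 0.37).

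*Ctla2a* (chr13:60934155-60936625, minus strand), a marker of the series for these cells whose promoter is printed above, had 975 and 589 UMIs (-1.04, -1.19 to -0.89). It had 86 and 15 UMIs in the gap junction-rich cells and was at 2813 and 1502 CPM in the remaining cells (-0.90, -1.06 to -0.75).

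*Klf2*, a transcription factor induced by flow, was higher in Cnot3-cKO. It had 216 and 577 UMIs, 495 CPM (431 to 566) and 1065 CPM (980 to 1156), a log2 ratio of 1.10 (0.88 to 1.34). Per cell it ran from 0 to 37 in control (median 2) and from 0 to 44 in Cnot3-cKO (median 6), and 8 control and 13 Cnot3-cKO cells had 0. The difference was large in the remaining cells, at 359 and 1147 CPM (1.68, 1.38 to 1.99), and within the interval in the gap junction-rich cells, at 918 and 1049 CPM (0.19, -0.19 to 0.59). In interstitial cells *Klf2* was at 168 and 180 CPM. Of 13 flow and vasoactive genes measured 2 were at least 2-fold higher, *Klf2* and *Edn1*, the precursor of endothelin, which had 14 and 40 UMIs (1.20, 0.29 to 2.19), 7 and 32 of them in gap junction-rich cells. *Nos3*, the endothelial nitric oxide synthase, was at 82.5 and 133 CPM (0.69, 0.09 to 1.31), and *Klf4* was at 156 and 157 CPM (0.01, -0.47 to 0.49).

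*Klf2* is also known among the genes induced when cells are dissociated. Of 9 immediate early genes measured in the endothelial cells, 0 were 2-fold apart, near the shares of all genes (5.3% higher and 1.95% lower). Their median log2 ratio was 0.05. The sum of the 13 genes of that list was at 1717 and 2019 CPM (0.23, 0.10 to 0.37) in endothelial cells, at 2059 and 4472 CPM in interstitial cells, at 1890 and 6679 CPM in macrophages and at 1921 and 3492 CPM in empty barcodes, in each case higher in Cnot3-cKO. Their part in the *Klf2* difference was not tested. *Fos* had 46 and 57 UMIs (0.00, -0.59 to 0.59) and *Jun* 135 and 220 (0.39, 0.08 to 0.71).

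VEGF receptors lay within 2-fold of control. *Kdr*, the main signalling receptor, was at 449 CPM (389 to 517) and 434 CPM (380 to 493), a log2 ratio of -0.05 (-0.33 to 0.23). *Flt1*, a decoy receptor, was at 346 and 489 CPM (0.50, 0.21 to 0.80), and *Ptprb*, a phosphatase that acts on *Tek* and *Kdr* products, at 417 and 615 CPM (0.56, 0.29 to 0.83). Of 7 receptors and co-receptors, 0 were 2-fold apart, which in so short a list is near the shares of all genes (5.3% higher and 1.95% lower). Ligands were scarce: *Vegfa* had 3 and 5 UMIs, *Pgf* 0 and 2, and *Vegfd* 0 in both, so a level up to 6.88 and 5.54 CPM is allowed for *Vegfd*. *Vegfc* had 37 and 70 UMIs (0.61, 0.01 to 1.22), mainly in gap junction-rich cells.

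The angiopoietin receptors *Tek* and *Tie1* were at 163 and 159 CPM (-0.04, -0.51 to 0.44) and at 172 and 236 CPM (0.46, 0.04 to 0.89). *Angpt2*, the ligand made by sprouting endothelium, had 1 UMI in control and 13 in 11 Cnot3-cKO cells (3.39, 0.65 to 8.80), too few for the 20 UMI minimum. Of 7 tip cell genes measured 0 were 2-fold apart, and all 7 had ratios above 0, with a median of 0.39, where 54.6% of all genes had a ratio above 0.

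In the Notch pathway 0 of 9 measured genes were 2-fold apart, near the shares of all genes (5.3% higher and 1.95% lower). The receptor *Notch1* had 55 and 98 UMIs (0.52, 0.03 to 1.02) and the ligand *Dll4* 53 and 82 (0.32, -0.20 to 0.84), while the feedback regulator *Nrarp* had 73 and 58 (-0.64, -1.17 to -0.13). In the BMP and TGF-beta pathway 0 of 12 were 2-fold apart and 10 had ratios above 0, as had 54.6% of all genes. The co-receptor *Eng* was at 685 and 659 CPM (-0.06, -0.28 to 0.17), and the targets *Id1* and *Id3* at 513 and 688 CPM (0.42, 0.18 to 0.67) and at 844 and 1167 CPM (0.47, 0.28 to 0.66).

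Of 23 transcription factors of endothelium, 1 was at least 2-fold higher, *Klf2*, and 0 were lower, with a median log2 ratio of 0.15. This count is near the shares of all genes, 5.3% higher and 1.95% lower. The ETS factors *Erg*, *Fli1* and *Ets1* had ratios of 0.24 (-0.49 to 0.99), -0.45 (-0.85 to -0.05) and -0.17 (-0.53 to 0.19). *Sox17*, a regulator of arterial fate, was at 303 and 382 CPM (0.34, 0.01 to 0.66), and *Sox18* at 458 and 522 CPM (0.19, -0.08 to 0.46).

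Of 16 junction and adhesion genes 0 were 2-fold apart, near the shares of all genes (5.3% higher and 1.95% lower). *Mmrn2*, a matrix protein of endothelium, was at 181 and 354 CPM (0.97, 0.58 to 1.37) and is not in that list. *Vwf*, the clotting factor carrier, was the 1 venous gene of 8 at least 2-fold higher, with 51 and 138 UMIs (1.12, 0.65 to 1.62), and 36 and 80 of these were in gap junction-rich cells. The venous regulator *Nr2f2* had 30 and 41 UMIs (0.14, -0.58 to 0.87). In the basement membrane list of 16, *Lamb2* (1.25, 0.47 to 2.08) and *Fn1* (1.10, 0.45 to 1.80) were at least 2-fold higher and *Lama5* (-1.23, -2.58 to 0.02) lower, while *Col4a1* stood at 2134 and 2093 CPM (-0.03, -0.15 to 0.10) and *Sparc* at 6184 and 4705 CPM (-0.39, -0.47 to -0.32).

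**Figure D5:**
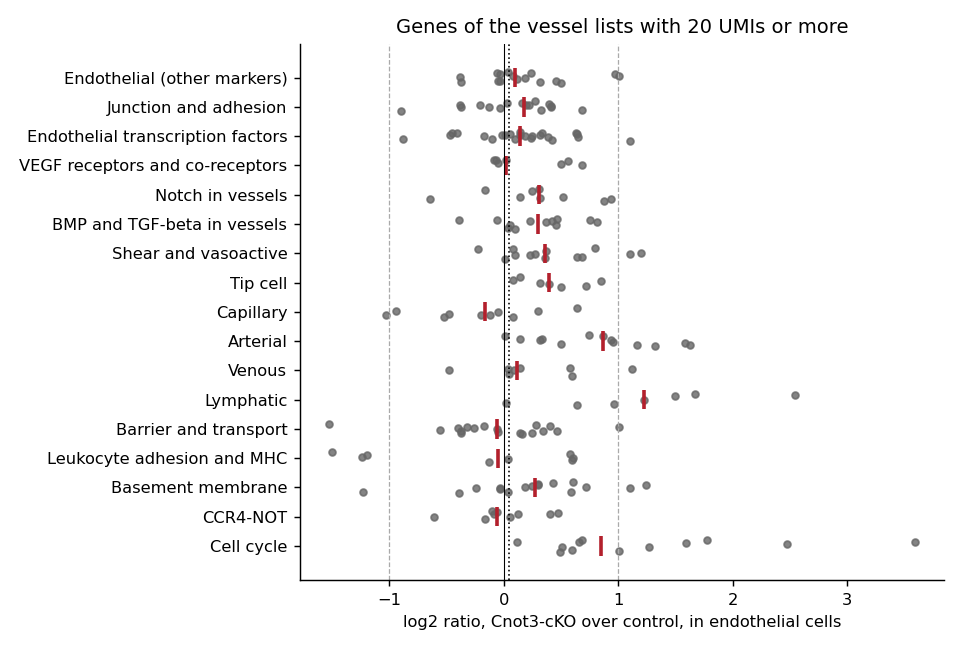
Ratio of Cnot3-cKO to control in endothelial cells on the log2 scale (horizontal axis) for every gene with at least 20 UMIs in 17 lists (vertical axis); each point is a gene, red bars are list medians, the dotted line is the median of all genes at 0.05 and the dashed lines mark 2-fold. The arterial genes all lie above 0 with a median of 0.87, and the CCR4-NOT genes lie within 2-fold around -0.06.

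Of 12 factors known to act on germ cells, 2 had at least 20 UMIs and 4 had 0 in both libraries. *Gdnf*, the factor for stem cell renewal, had 0 UMIs in both libraries, as had *Lif*, *Igfbp2* and *Cxcl2*, and *Fgf2* had 0 and 1. A count of 0 allows up to 6.88 CPM in control and 5.54 CPM in Cnot3-cKO. *Kitl*, the ligand of the receptor on differentiating spermatogonia, was at 170 and 179 CPM (0.08, -0.37 to 0.53), against 393 and 475 CPM in Sertoli cells. *Cxcl12*, a chemokine for stem cells, was at 406 and 618 CPM (0.61, 0.34 to 0.88). Of its UMIs 174 of 177 in control were in gap junction-rich cells, against 242 of 335 in Cnot3-cKO. The remaining cells had 3 and 92 UMIs, 9.52 and 247 CPM (4.70, 3.11 to 7.002). Of these 92, 43 were in the 5 cells with 2 to 4 UMIs of the gap junction pair, and without those cells the counts were 3 and 49 UMIs (3.91, 2.28 to 6.24). The 3 control UMIs were in 1 cell. The 49 were in at most 11 cells, with up to 21 in 1 cell, so the ratio rests on few cells. In interstitial cells *Cxcl12* was at 207 and 215 CPM.

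*Pdgfb*, which recruits pericytes, had 80 and 105 UMIs (0.08, -0.35 to 0.52). Of 5 pericyte recruitment genes measured 1 was at least 2-fold higher, *Edn1*, and 0 lower. Of 9 genes for leukocyte adhesion and antigen presentation measured, 4 were at least 2-fold lower (1.95% of all genes) and 0 higher (5.3%). Their median log2 ratio was -0.05, or -0.13 with the gene at 0 in 1 library taken at its bound. Those 4 were *H2-D1*, *H2-K1*, *B2m* and *Cd74*, while *Icam2*, a ligand for leukocytes, was at 316 and 290 CPM (-0.13, -0.47 to 0.21).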

How the data were processed

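Testis cells sorted at postnatal day 8 were sequenced on a droplet platform, in 2 samples of each genotype. The authors deposited raw UMI counts, which Cell Ranger (3.0.1 in the submitters' processing notes) had made on mm10, with both samples of a genotype summed. Barcodes were taken from 2 matrices of 30828 genes by the rule in the text. The members and the gene lists were chosen with earlier results of these data known, and 3 lists (MHC class I, interferon response, arterial wall) and the limits for subsets after the values were seen.

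UMIs were summed per library and given per 1000000 (CPM) with exact Poisson intervals. Ratios of Cnot3-cKO over control have exact conditional intervals, and shares exact Clopper-Pearson intervals, at 95%. A count of 0 was read as up to 3 counts. The planned thinning to 3000 UMIs was computed as the exact expectation. With 1 library per genotype no test was run. Genes had at least 20 UMIs. Besides the lists, the 15 genes with the highest fold over other kinds (at least 100 UMIs) and the 6 highest lower and 6 lowest upper limits were named by rule. Other named genes were chosen after their values were seen. On simulated data for the genotype comparison over 6451 genes, 98.3% of 172 genes changed 4-fold were recovered, 4.46% of unchanged genes passed 2-fold and 96.0% of intervals held the true ratio.

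Positions are from GENCODE M21 (GRCm38), matched for 99.8% of identifiers. Doublets were called with Scrublet in scanpy 1.11.5 and kept. Python 3.11.15, numpy 2.4.6, scipy 1.17.1, pandas 2.3.3 and matplotlib 3.10.9 were used.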

Additional observations from a re-analysis of the deposited data

How the results depend on the processing

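The alternatives were 15 set beforehand and 8 added after seeing the data. Raising the depth minimum to 8000 UMIs left 31 control and 35 Cnot3-cKO cells, in place of 35 and 54. The 346 genes at least 2-fold higher in Cnot3-cKO became 578 with free RNA subtracted, 70 with at least 50 UMIs per gene and 176 without the cells rich in gap junction, lymphatic or cell cycle genes (added), where 173 genes were lower. The 127 genes at least 2-fold lower became 236 with free RNA subtracted, 218 with that subtraction scaled without *Wt1* (added), 29 with at least 50 UMIs per gene and 200 as a mean over cells (added), where 416 were higher. Fewer genes could pass the stricter minimum, and the cause of the other shifts was not tested. At a fold of 8 in place of 4, 117 genes stood above the other kinds. *Hist1h1b* fell to 2.18 without called doublets. Without the gap junction-rich, lymphatic-like and cycling cells, *Hist1h1b* had a log2 ratio of -1.68 and *Hist1h2ae* of -0.10, both reversed, and *Wfdc10* had 0.59 with Sertoli and collagen genes under 0.25%. The other 98 values of counts, shares, *Cnot3* and specificity stayed within their limits, which were wide. Within them, the 346 higher genes became 239 at 8000 UMIs. They became 513 with free RNA scaled without *Wt1* (added), and 516 without each gene's highest cell in each library (added). The shares of cells with cell cycle UMIs became 24.9% and 37.3% at a limit of 2 UMIs. Among the genes named between genotypes, *H2-K1* ranged from -1.72 to -1.43, *Klf2* from 0.92 to 2.29, *Mgp* from 0.62 to 1.602, *Gja4* from 0.34 to 3.81 and *Gpihbp1* from -1.28 to -0.81 over 17 alternatives each. The 3.81 of *Gja4* came without the cells rich in gap junction, lymphatic or cell cycle genes, which were chosen in part by *Gja4* itself. Its next highest value was 1.02. With Sertoli and collagen genes under 0.25%, *Gja4* was at 0.41 and *Mgp* was at its lowest value, 0.62.

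The level of a marker list in endothelial cells over that in empty barcodes was 23.0% in control and 9.96% in Cnot3-cKO for the Sertoli list (18.6% and 7.34% without *Wt1*), 10.7% and 14.7% for the germ list and 4.75% and 8.23% for the macrophage list (added), so the share of free RNA that was subtracted is not settled, nor which library had more. No paired analysis was possible because the samples of a genotype are merged in 1 matrix, so no sample was left out in turn. With 436254 and 541787 UMIs in all, a gene of 20 UMIs is measured less closely than to within 2-fold. *Aatf*, for example, with 9 and 11 UMIs, had a log2 interval of -1.43 to 1.43. Subsets of 1 to 10 cells set the ratios of genes found only in them.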
